A study of Rattus norvegicus with 7 samples.

Results

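The genes described here encode the mitochondrial respiratory chain, sorted by the complex their proteins belong to. Rows of the deposited gene table were taken when the symbol began with Nduf, Uqcr, Atp5, Cox4 to Cox8 or Mt-, or was Sdha, Sdhb, Sdhc, Sdhd, Cyc1 or Cycs. That rule found 111 of 20660 rows, which carry 108 different symbols because Ndufv3, Uqcrb and Cox6b1 each stand on 2 rows. Of these, 98 rows are encoded in the nucleus and 13 in mitochondrial DNA. Complex I contributed 45 nuclear rows, among them 8 assembly factors, complex II 4, complex III 10, complex IV 20 and complex V 18, and cytochrome c (Cycs) 1.

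RNA-seq was done on synovium, the soft tissue lining the joint, of male SD rats aged 3 months, with 1 library per rat. The MIA group (MIA 1 to 4) received MIA at 10 mg/kg in 0.1 mL into the space of the right knee. The labels leave MIA unexplained; in rodent models of knee osteoarthritis it usually means monosodium iodoacetate, which blocks glycolysis. The control group (control 2 to 4) was left untreated, so it had no sham injection, and tissue was taken 4 weeks after the injection. The protocol also names sodium pentobarbital, given intraperitoneally ahead of the knee injection, and does not say whether controls had it. The comparison of MIA with control joints therefore covers the agent and the injection together.

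The respiratory chain passes electrons from NADH (complex I) and succinate (complex II) through coenzyme Q, complex III and cytochrome c to oxygen at complex IV. The protons pumped on the way drive ATP synthase, complex V. Most subunits are nuclear gene products that are imported, whereas mitochondrial DNA encodes a few central subunits of complexes I, III, IV and V. Some complex IV subunits exist as paralogs, one of them used mainly in heart and skeletal muscle, and skeletal muscle is among the tissues richest in all 5 complexes.

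Total counts ran from 13870822 to 16261089 per library. The tissue label was checked against marker lists. Prg4, the lubricin of the synovial lining, was present in every library. It had 185.0 (MIA 3) to 4837 CPM (counts relative to the scaled library size) in MIA and 1494 to 3651 CPM in control. Transcripts of skeletal muscle were present too: 24 of 29 listed muscle genes had rows, and together they took 2.80%, 0.0562%, 5.42% and 3.12% of the counts in MIA 1 to 4, against 15.9%, 14.97% and 17.6% in control 2 to 4. Every MIA library thus held less muscle RNA than every control, and 6 of the 24 muscle genes passed the test as lower, with a median log2 change of -2.997; over all genes tested, 19.6% were called lower and 21.3% higher. No muscle gene found was at 0 in all libraries. Of the other lists, 7 of 8 fibroblast, 8 of 9 macrophage, 4 of 5 neutrophil and 4 of 8 chondrocyte genes tested were higher in MIA. Summed over its list, neutrophil RNA stood at 24.1 to 579 CPM in MIA, highest in MIA 3, and at 11.3 to 16.2 CPM in control. Chondrocyte RNA stood at 250.9 to 3800 CPM in MIA, lowest in MIA 3, and at 372 to 516 CPM in control. RNA of the synovial lining list took 0.0650%, 0.634%, 0.0465% and 0.242% of the counts in MIA 1 to 4. In control 2 to 4 it took 0.186%, 0.415% and 0.230%, so lining RNA varied widely among the MIA libraries. Of 7 genes of the synovial lining 1 was lower (Clic5, log2 change -2.29), and of 10 adipocyte genes 2, which is near the share over all genes. The part these values have in the results below was not tested. In 1 fit the muscle level (mean log2 CPM of the list) was a covariate. That level was 3.20 to 9.92 in MIA and 11.8 to 12.5 in control. The groups did not overlap in it, so this fit cannot separate muscle level from group.

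Most nuclear genes of the respiratory chain were lower in MIA synovium than in control synovium. Of 93 nuclear rows with enough counts to test, 75 were lower and 3 were higher; a gene was called when edgeR's quasi-likelihood test gave p under 0.05 after Benjamini-Hochberg adjustment over all 14054 genes tested, and the remaining 15 rows did not pass. Over all genes tested, 19.6% were called lower and 21.3% higher. Among those calls, 52.1% were higher, and 78.0% with library totals in place of TMM scaling. The median log2 change of the nuclear rows was -1.52, beside 0.07 over all genes. In 71 nuclear rows every MIA library lay below every control library, and in 4 every MIA library lay above, whereas 24.4% and 24.8% of all genes tested did so. In bulk tissue, fewer cells of a type and less RNA per cell cannot be told apart. With the muscle level as a covariate, 50 of the 93 nuclear rows were lower and 4 higher at an unadjusted p under 0.05. The share of all genes at that threshold is not given here, nor for later counts at an unadjusted p. After adjustment 24 of the 93 rows were called lower in that fit, all of them among the 75, and 0 higher. Of all genes, 7.65% were then called lower. By complex, that left 15 lower rows in complex I, 3 in complex II and 2 each in complexes III, IV and V.

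The mitochondrially encoded genes had fewer calls, and the difference between the genomes was not tested. Of 12 rows tested, 3 were lower (Mt-nd2, Mt-nd5 and Mt-nd6) and 0 higher, with a median log2 change of -1.02. That share is near the 19.6% of all genes called lower, so the count by itself does not set these genes apart. The count depended on the tool, since at the same threshold DESeq2 called 10 of 13 and limma-voom 7 of 12 lower, beside 14.9% and 19.8% of all genes. With library totals, and when MIA 3, MIA 4, control 3 or control 4 was left out, 1 was called, which was Mt-nd6 each time; with the muscle covariate it was 0 in edgeR (2 at an unadjusted p under 0.05). No mitochondrial row, and no nuclear row of complexes I, II, III or V, was higher even at an unadjusted p under 0.05 in edgeR, DESeq2 or limma-voom without a covariate. The nuclear rows together took 0.805%, 0.587%, 1.37% and 0.895% of the counts in MIA 1 to 4, against 1.58%, 2.37% and 2.17% in control 2 to 4, so the groups did not overlap. The mitochondrial rows took 11.8%, 7.36%, 7.77% and 8.14% in MIA, against 11.3%, 13.4% and 13.0% in control. Here MIA 1 lay inside the control range and the other MIA libraries below it.

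**Figure D1:**
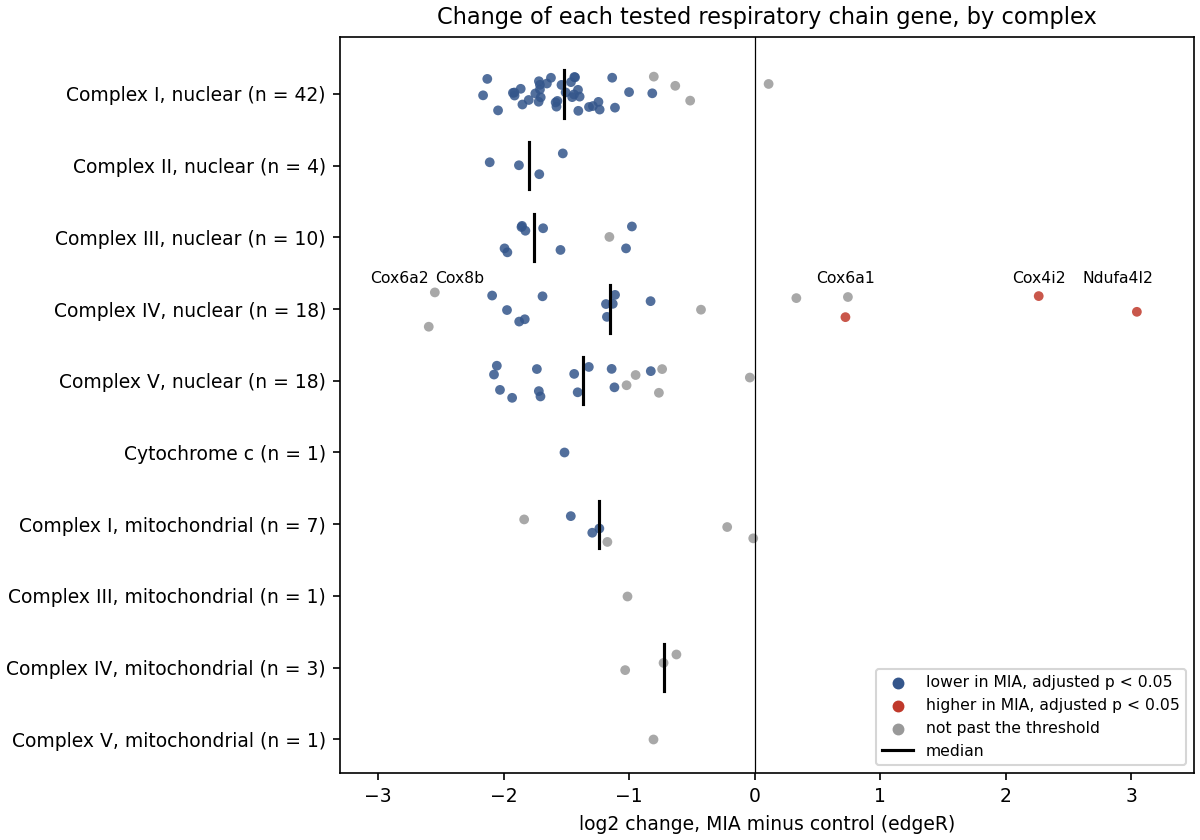
Each point is 1 tested gene, placed by its fitted log2 change (MIA minus control) and sorted by complex and coding genome; blue points were called lower, red points higher and grey points neither, and black bars are medians. The medians of the nuclear groups lie between -1.80 and -1.15, and the 3 red points are complex IV genes.

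In complex I, 38 of 42 nuclear rows tested were lower and 0 higher, with a median log2 change of -1.52. The 7 conserved core subunits, which carry the flavin, the iron-sulphur clusters and the quinone site, were all lower, with a median of -1.93. Among them Ndufs7, part of the quinone-binding region, changed most: it had 51.3, 33.03, 104 and 69.2 CPM in MIA 1 to 4, against 231, 323 and 310.5 CPM in control 2 to 4. The highest MIA library, MIA 3, stayed below 231 CPM, the lowest control. That made Ndufs7 4.48-fold lower (log2 change -2.16 ± 0.37 SE, edgeR adjusted p = 0.00332). Ndufs1, the largest core subunit, had 89.1, 55.6, 122 and 144 CPM in MIA 1 to 4, against 316, 564 and 468 CPM in control 2 to 4, and again the groups were apart (4.38-fold lower; log2 change -2.13 ± 0.35 SE, edgeR adjusted p = 0.00314). The smallest change of a core subunit was that of Ndufs8, which holds iron-sulphur clusters next to the membrane arm (2.35-fold lower; log2 change -1.23 ± 0.28 SE, edgeR adjusted p = 0.00997).

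Accessory subunits surround the core and are needed for its assembly and stability. Of 27 rows tested, 24 were lower, with a median log2 change of -1.54, and their changes ran from -1.91 (Ndufab1, the mitochondrial acyl carrier protein) to -0.51 (Ndufa2). By p the first accessory subunit was Ndufb11, of the membrane arm, with 58.1, 45.5, 66.3 and 55.5 CPM in MIA 1 to 4, against 137, 198 and 198 CPM in control 2 to 4. The 4 MIA values lay close together and all below the controls (3.15-fold lower; log2 change -1.66 ± 0.21 SE, edgeR adjusted p = 0.00139; ENSRNOG00000008329). The 3 accessory subunits that did not pass were Ndufa2, Ndufc2 and Ndufs5, with edgeR adjusted p of 0.321, 0.0693 and 0.0977. In each of these, MIA 3 was the highest MIA library and lay inside or above the control range; Ndufa2, for example, had 50.2, 25.6, 85.4 and 34.5 CPM in MIA 1 to 4, against 49.4, 81.7 and 78.6 CPM in control 2 to 4. Ndufs6, Ndufa1 and the second row of Ndufv3 had too few counts to test, at most 1.47 CPM in any library, so these rows were hardly counted in either group; how reads shared with other sequence were counted is not given in the sources used here, and the low values are uncertain.

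Assembly factors build complex I without staying in it, and 7 of the 8 with the Ndufaf prefix were lower, with a median of -1.27. Ndufaf3 had the smallest p of all members: 15.3, 14.7, 15.7 and 15.1 CPM in MIA 1 to 4, against 36.3, 45.6 and 41.6 CPM in control 2 to 4 (2.71-fold lower; log2 change -1.44 ± 0.14 SE, edgeR adjusted p = 0.000902; ENSRNOG00000020068). Its MIA values differed little among themselves, including MIA 2, which was the lowest MIA library for most members. The exception was Ndufaf7, a protein methyltransferase, with 10.1, 18.6, 17.7 and 12.9 CPM in MIA 1 to 4, against 14.4, 14.3 and 12.4 CPM in control 2 to 4. Its MIA values lay on both sides of the controls (log2 change 0.11 ± 0.24 SE, edgeR adjusted p = 0.736).

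Complex II, succinate dehydrogenase, has no mitochondrially encoded subunit and also works in the citric acid cycle. All 4 of its genes were lower, with a median log2 change of -1.80, and in all 4 the groups did not overlap. Sdha, the flavoprotein that oxidises succinate, had 140.4, 109, 199 and 189.7 CPM in MIA 1 to 4, against 536, 751 and 779.9 CPM in control 2 to 4 (4.32-fold lower; log2 change -2.11 ± 0.29 SE, edgeR adjusted p = 0.00165). Sdhb, the iron-sulphur subunit, had 90.5, 69.1, 174 and 99.5 CPM in MIA 1 to 4, against 221, 398 and 448 CPM in control 2 to 4 (3.28-fold lower; log2 change -1.72 ± 0.37 SE, edgeR adjusted p = 0.00789). The 2 membrane anchors differed in the same direction. Sdhc had 89.0, 81.0, 121 and 105 CPM in MIA 1 to 4, against 201, 362 and 294 CPM in control 2 to 4 (2.88-fold lower; log2 change -1.53 ± 0.25 SE, edgeR adjusted p = 0.003). Sdhd had 92.0, 84.0, 151 and 105 CPM in MIA 1 to 4, against 308, 459 and 424 CPM in control 2 to 4 (3.67-fold lower; log2 change -1.88 ± 0.27 SE, edgeR adjusted p = 0.00187). In each of the 4 genes MIA 2 was the lowest and MIA 3 the highest MIA library. The call of Sdhb did not hold with the muscle level as a covariate (log2 change -1.05, adjusted p = 0.127), and those of Sdha, Sdhc and Sdhd did.

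In complex III, 9 of 10 nuclear rows were lower, with a median log2 change of -1.76. Cytochrome c1 (Cyc1) and the Rieske iron-sulphur protein (Uqcrfs1) carry its nuclear-encoded redox centres. Cyc1 had 96.4, 62.7, 183 and 133 CPM in MIA 1 to 4, against 337, 586 and 493 CPM in control 2 to 4 (3.98-fold lower; log2 change -1.99 ± 0.38 SE, edgeR adjusted p = 0.00496). Uqcrfs1 was 3.92-fold lower (log2 change -1.97 ± 0.36 SE, edgeR adjusted p = 0.00435). The core proteins Uqcrc1 and Uqcrc2 had the smallest p of this complex. Uqcrc1 had 129, 103, 211 and 175 CPM in MIA 1 to 4, against 402, 638 and 601 CPM in control 2 to 4 (3.55-fold lower; log2 change -1.83 ± 0.31 SE, edgeR adjusted p = 0.00322; ENSRNOG00000032134). Uqcrc2 had 87.2, 59.1, 129 and 120.4 CPM in MIA 1 to 4, against 257, 400.3 and 418 CPM in control 2 to 4 (3.62-fold lower; log2 change -1.86 ± 0.31 SE, edgeR adjusted p = 0.00332; ENSRNOG00000036742). In Cyc1, Uqcrc1 and Uqcrc2 alike, each control was above all MIA libraries and control 2 was the lowest control. Uqcr10, a small subunit, did not pass (log2 change -1.16 ± 0.42 SE, edgeR adjusted p = 0.0566), with MIA 3 at 41.8 CPM above control 2 at 32.2 CPM. Both rows of Uqcrb were lower, at log2 changes of -1.55 and -1.85; reads of near-identical copies may be split between them, so each value is uncertain. Cycs, the mobile carrier between complexes III and IV, had 8.73, 8.48, 18.6 and 11.2 CPM in MIA 1 to 4, against 22.1, 47.3 and 31.8 CPM in control 2 to 4 (2.86-fold lower; log2 change -1.52 ± 0.35 SE, edgeR adjusted p = 0.0104); it has processed copies in rodent genomes, and its counts are uncertain for the same reason. The calls of Cyc1 and Cycs did not hold with the muscle level as a covariate (adjusted p = 0.0612 and 0.171).

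**Figure D2:**
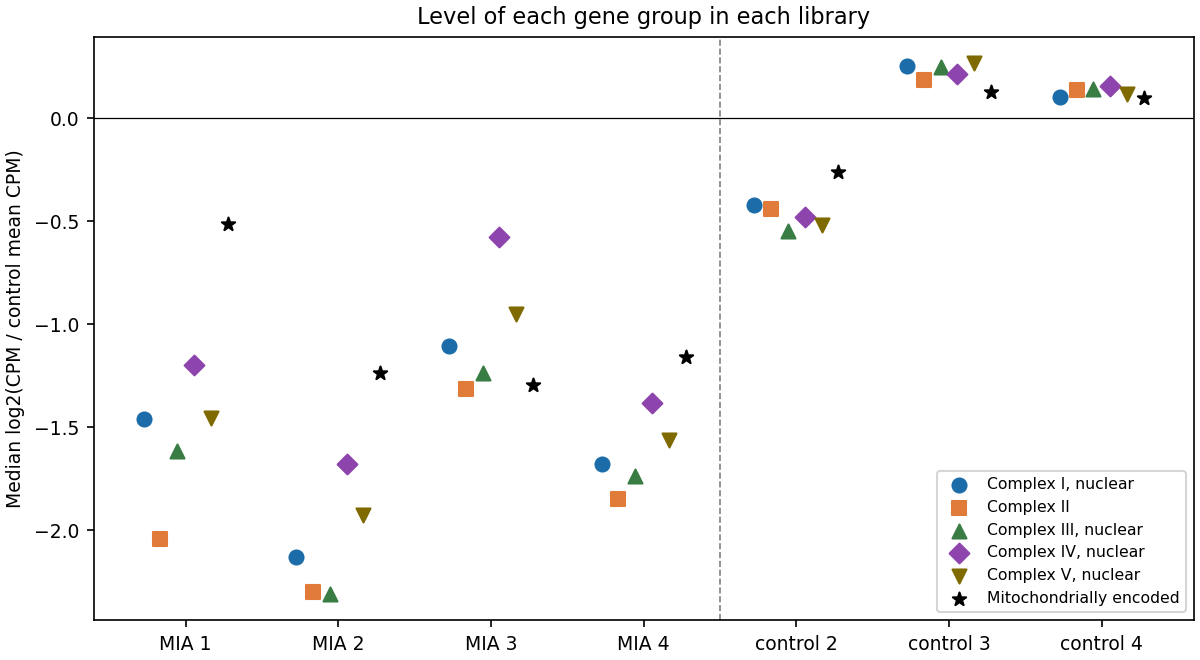
Points give, for each library, the median over a group's genes of log2(CPM / control mean CPM), for the nuclear genes of complexes I to V and for the mitochondrially encoded genes. The nuclear groups are lowest in MIA 2 and highest among MIA libraries in MIA 3, while the mitochondrially encoded genes are highest in MIA 1 at -0.51.

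Complex IV was the one in which directions split. Of 18 nuclear rows tested 10 were lower, 3 were higher and 5 did not pass, and the median log2 change was -1.15. Without control 3 or without control 4 the lower rows numbered 6, and with library totals or FPKM 5. Most subunits in widespread use were lower. Cox5a, which binds next to the catalytic core, had 72.0, 50.3, 121 and 95.5 CPM in MIA 1 to 4, against 259, 423 and 400.0 CPM in control 2 to 4 (4.26-fold lower; log2 change -2.09 ± 0.33 SE, edgeR adjusted p = 0.00256; ENSRNOG00000018816). Cox4i1, the common form of the regulatory subunit 4, had 266, 194, 250.3 and 266 CPM in MIA 1 to 4, against 524, 882 and 957 CPM in control 2 to 4 (3.23-fold lower; log2 change -1.69 ± 0.28 SE, edgeR adjusted p = 0.00306; ENSRNOG00000017817). For both genes no MIA library reached the lowest control. Cox5b, Cox6c, Cox7b, Cox7c, Ndufa4, Cox7a2l2 and both rows of Cox6b1 were lower too, with log2 changes between -1.97 and -0.83. Cox7a2l, which joins complexes III and IV in supercomplexes, had 127, 119, 131 and 80.2 CPM in MIA 1 to 4, against 131, 155 and 175 CPM in control 2 to 4, overlapped between the groups and did not pass (log2 change -0.43 ± 0.22 SE, edgeR adjusted p = 0.15). Cox7a1 and Cox8c had too few counts to test. How reads shared with other sequence were counted is not given, so these low values are uncertain too.

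The 3 genes that were higher each belong to a pair of paralogs. Ndufa4l2, the paralog of the complex IV subunit Ndufa4 that low oxygen induces in cultured human and mouse cells, had 74.1, 56.3, 20.2 and 24.1 CPM in MIA 1 to 4, against 7.14, 5.54 and 3.11 CPM in control 2 to 4. MIA 1 and MIA 2 were the highest, and the lowest MIA library was well above every control (8.26-fold higher; log2 change 3.05 ± 0.55 SE, edgeR adjusted p = 0.00412; ENSRNOG00000031851). Cox4i2, the form of subunit 4 best known from lung and also induced in low oxygen, had 20.9, 27.4, 8.87 and 16.2 CPM in MIA 1 to 4, against 3.92, 4.397 and 3.11 CPM in control 2 to 4. Here MIA 2 was the highest and MIA 3 the lowest of the MIA libraries, again with no overlap (4.80-fold higher; log2 change 2.26 ± 0.39 SE, edgeR adjusted p = 0.00358; ENSRNOG00000007827). Cox6a1, the form of subunit 6a found in most tissues, had 157, 156, 142 and 109.9 CPM in MIA 1 to 4, against 94.9, 88.7 and 72.9 CPM in control 2 to 4, which made it 1.65-fold higher (log2 change 0.72 ± 0.20 SE, edgeR adjusted p = 0.0196; ENSRNOG00000001170). With the muscle level as a covariate the adjusted p of Ndufa4l2, Cox4i2 and Cox6a1 became 0.0596, 0.0501 and 0.197. The call of Cox6a1 also ended without control 3 (adjusted p = 0.0694) and without control 4 (0.0951).

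The heart and skeletal muscle forms Cox6a2 and Cox8b had lower values in every MIA library than in every control. Cox6a2, the muscle form of subunit 6a, had 94.1, 1.66, 284 and 128 CPM in MIA 1 to 4, against 528, 892 and 883 CPM in control 2 to 4. All MIA libraries lay below all controls, and MIA 2 was almost without it. The MIA values spread so widely that the difference did not pass (log2 change -2.60 ± 1.09 SE, edgeR adjusted p = 0.0888), and it did without MIA 2 (log2 change -2.18, adjusted p = 0.00797). Cox8b, the muscle form of subunit 8, had 40.7, 0.383, 126 and 41.8 CPM in MIA 1 to 4, against 144, 412 and 362 CPM in control 2 to 4, with the same order of libraries (log2 change -2.55 ± 1.15 SE, edgeR adjusted p = 0.109; without MIA 2 -2.12, adjusted p = 0.0191). Both followed the muscle genes library by library, with MIA 2 lowest and MIA 3 highest in the MIA group, and in the fit with the muscle covariate their log2 changes turned to 0.89 and 1.38. Cox8a, the widespread form of subunit 8, had 113, 101, 84.4 and 63.0 CPM in MIA 1 to 4, against 71.4, 77.4 and 66.1 CPM in control 2 to 4, overlapped between the groups and did not pass (log2 change 0.33 ± 0.22 SE, edgeR adjusted p = 0.244); with scaling by library totals it was called higher (0.76, adjusted p = 0.0174).

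Ratios of paralogs within a library do not depend on scaling between libraries. They were taken on FPKM, which is per gene length, as log2 ratios with 0.1 added, and 5 pairs could be measured. Cox6a2 made up 40.9%, 1.22%, 69.8% and 57.4% of the summed FPKM of Cox6a2 and Cox6a1 in MIA 1 to 4, against 86.5%, 92.1% and 93.3% in control 2 to 4. Thus the muscle form was the main one in controls and in MIA 3 and MIA 4, while the widespread form was the main one in MIA 1 and MIA 2. For Cox8b and Cox8a the share of the muscle form was 35.96%, 0.584%, 69.9% and 50.7% in MIA, against 75.7%, 89.2% and 89.5% in control. The mean log2 ratios differed by -4.64 and -4.31, MIA minus control (exact two-sided permutation test over 35 assignments, p = 0.0571 and adjusted p = 0.0571 for both).

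The other 3 pairs moved towards the less common form. Ndufa4l2 gave 57.3%, 69.0%, 19.4% and 32.2% of the sum with Ndufa4 in MIA, against 5.39%, 2.36% and 1.29% in control. Cox4i2 gave 5.16%, 8.91%, 2.40% and 4.04% of the sum with Cox4i1 in MIA, against 0.516%, 0.344% and 0.225% in control. Every MIA library was above every control in both pairs, and in both MIA 2 had the highest share and MIA 3 the lowest. Cox6b2, the testis form of subunit 6b, gave 4.33%, 2.24%, 2.15% and 2.20% of the sum with Cox6b1 in MIA, against 0.954%, 0.640% and 0.770% in control. Of the rows of Cox6b1 only the one with the higher mean CPM in controls entered this ratio, so these shares are uncertain. Cox6b2 itself was low, with 3.77, 1.53, 2.38 and 1.58 CPM in MIA 1 to 4, against 1.2604, 1.41 and 1.47 CPM in control 2 to 4, and did not pass alone (log2 change 0.74 ± 0.43 SE, edgeR adjusted p = 0.199); with limma on log2(FPKM + 1) it was called higher (0.86, adjusted p = 0.0356). The log2 ratios of these pairs differed by 4.83, 3.78 and 1.74, each with an exact permutation p of 0.0286, the smallest that 35 assignments can give, and 0.0476 after Benjamini-Hochberg adjustment over the 5 pairs.

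**Figure D3:**
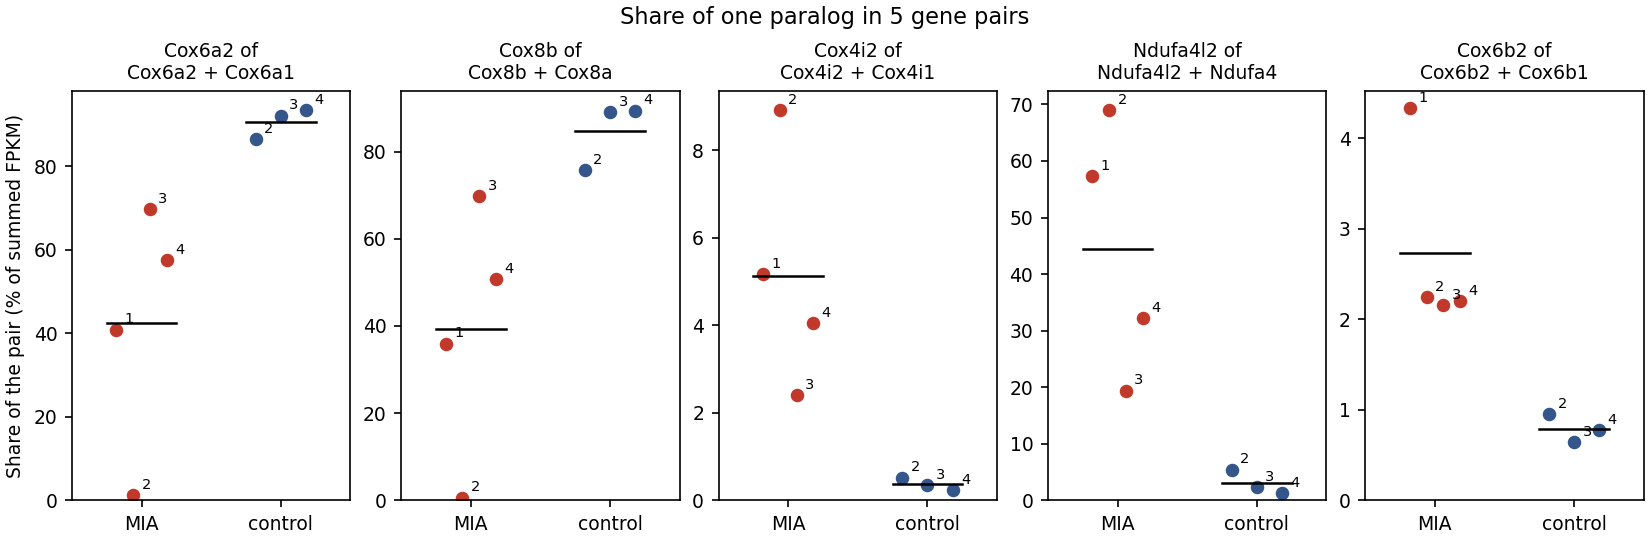
Each panel gives, for 1 pair of paralogs, the percentage of the pair's summed FPKM that belongs to the first-named gene, with 1 point per library labelled by its replicate number and a bar at the group mean; each panel has its own scale. The muscle forms Cox6a2 and Cox8b are lowest in MIA 2, and the shares of Ndufa4l2, Cox4i2 and Cox6b2 are higher in all MIA libraries than in all controls.

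Promoter sequence is shown for Cox6a2, Cox8b and Cox8a, to set muscle forms beside a widespread one, and for Ndufa4l2, the member with the largest rise. It comes from the RefSeq promoter table (build GRCr8), as the 150 bases just before the annotated start, 5′ to 3′ on the strand of the gene. Capitals mark a match to a MEF2 site in Cox6a2 and to the ETS motif CCGGAAG, read on the other strand, at 2 places in Cox8a. Cox6a2 lies on the minus strand at chr1:192219717-192219866, Cox8b on the minus strand at chr1:205408274-205408423, Cox8a on the minus strand at chr1:213833624-213833773 and Ndufa4l2 on the plus strand at chr7:65242019-65242168.
Cox6a2: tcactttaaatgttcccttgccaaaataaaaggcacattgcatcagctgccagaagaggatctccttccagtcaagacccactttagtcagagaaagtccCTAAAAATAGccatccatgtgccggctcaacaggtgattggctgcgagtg
Cox8b: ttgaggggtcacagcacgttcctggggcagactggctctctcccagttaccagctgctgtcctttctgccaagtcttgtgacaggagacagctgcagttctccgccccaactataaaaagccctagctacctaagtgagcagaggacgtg
Cox8a: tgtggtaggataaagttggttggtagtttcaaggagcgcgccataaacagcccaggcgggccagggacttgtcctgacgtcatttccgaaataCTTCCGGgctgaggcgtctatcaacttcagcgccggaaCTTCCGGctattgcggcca
Ndufa4l2: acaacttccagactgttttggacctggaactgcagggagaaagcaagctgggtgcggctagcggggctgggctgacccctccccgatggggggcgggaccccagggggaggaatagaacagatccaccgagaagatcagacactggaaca
MEF2 is a transcription factor family of muscle and other tissues, and ETS motifs are bound among others by GABP, a factor known for respiratory chain genes. No motif searched was present in the stretches of Cox8b and Ndufa4l2, which says only that those letters are not in these windows.

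In complex V, 13 of 18 rows were lower and 0 higher, with a median log2 change of -1.37; 8 were lower without control 3, without control 4, with library totals or with FPKM. The catalytic F1 head is built mainly of the alpha and beta subunits. Atp5f1a (alpha) had 461, 285, 672 and 581 CPM in MIA 1 to 4, against 1575, 2471 and 2280 CPM in control 2 to 4 (4.22-fold lower; log2 change -2.08 ± 0.37 SE, edgeR adjusted p = 0.00405). Atp5f1b (beta), which binds the nucleotide that is turned over, had 732, 508, 1125 and 928 CPM in MIA 1 to 4, against 2533, 3805 and 3915 CPM in control 2 to 4 (4.15-fold lower; log2 change -2.05 ± 0.39 SE, edgeR adjusted p = 0.00491). In both, every MIA library was below every control. Per gene length Atp5f1b was the highest nuclear member in controls, at 536 ± 202 FPKM in MIA (SD, n = 4) and 1606 ± 274 FPKM in control (SD, n = 3). Atp5f1c, the rotating gamma subunit, had 151, 109, 212 and 178 CPM in MIA 1 to 4, against 378, 659 and 586 CPM in control 2 to 4 (3.33-fold lower; log2 change -1.73 ± 0.30 SE, edgeR adjusted p = 0.00359; ENSRNOG00000019223). Its call did not hold with the muscle level as a covariate (adjusted p = 0.0524).

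The c subunit of the proton-turned ring is encoded by 3 genes that differ in their import sequences. Atp5mc1 was 4.08-fold lower (log2 change -2.03 ± 0.36 SE, edgeR adjusted p = 0.00378) and Atp5mc3 3.29-fold lower (log2 change -1.72 ± 0.31 SE, edgeR adjusted p = 0.00401). Atp5mc2 was 1.77-fold lower (log2 change -0.83 ± 0.27 SE, edgeR adjusted p = 0.0376). Whether the 3 changes differ from each other was not tested. Atp5s, which the RefSeq table lists as Dmac2l, had the smallest p of the complex V rows with 6.22, 5.16, 7.36 and 4.48 CPM in MIA 1 to 4, against 14.4, 25.3 and 26.8 CPM in control 2 to 4 (3.82-fold lower; log2 change -1.93 ± 0.28 SE, edgeR adjusted p = 0.00194; ENSRNOG00000004893). The MIA libraries were close together and all below the lowest control.

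The 5 complex V rows that did not pass were Atp5if1, Atp5f1e, Atp5mg, Atp5mf and Atp5pb. Atp5if1, the inhibitor that stops the synthase from running backwards, had 89.1, 70.9, 78.7 and 47.5 CPM in MIA 1 to 4, against 66.5, 77.1 and 76.7 CPM in control 2 to 4. Its controls lay inside the MIA range (log2 change -0.04 ± 0.22 SE, edgeR adjusted p = 0.904). Atp5f1e, the epsilon subunit of the central stalk, had 123, 98.6, 382 and 89.8 CPM in MIA 1 to 4, against 199.9, 417 and 387 CPM in control 2 to 4. MIA 3 reached the control level and the other 3 MIA libraries did not (log2 change -0.95 ± 0.54 SE, edgeR adjusted p = 0.192). Atp5mg and Atp5mf, small subunits of the membrane part, showed MIA 3 inside the control range as well. Atp5pb, a stator subunit, was counted at only 0.8289 to 5.43 CPM in MIA and 2.66 to 7.56 CPM in control, far under the other stator genes, so its row gives a poorly measured value.

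The most abundant members were mitochondrially encoded, but Mt-nd4, Mt-nd4l, Mt-nd6 and Mt-atp8 had lower CPM than the nuclear gene Atp5f1b in every library. Mt-co1 is the catalytic subunit of complex IV. Per gene length it was the highest gene of that complex in MIA 4 and the controls, but not in the other MIA libraries. It had 22164, 14142, 13766 and 16351 FPKM in MIA 1 to 4, against 22026, 26931 and 26434 FPKM in control 2 to 4. In CPM all MIA libraries were below all controls, at 32304, 19672, 17323 and 21659 CPM in MIA 1 to 4, against 37697, 50758 and 50957 CPM in control 2 to 4, and MIA 1 came closest. The change did not pass in edgeR (log2 change -1.03 ± 0.64 SE, edgeR adjusted p = 0.224) and did with DESeq2 (adjusted p = 0.00122) and limma-voom (0.0389). Mt-co3, another complex IV subunit, had 18334, 11308, 13541 and 10482 CPM in MIA 1 to 4, against 17992, 24781 and 23761 CPM in control 2 to 4, and MIA 1 lay inside the control range (log2 change -0.73 ± 0.54 SE, edgeR adjusted p = 0.307). Mt-atp6, the proton channel of complex V, had 13517, 7788, 7009 and 7681 CPM in MIA 1 to 4, against 12805, 17758 and 16641 CPM in control 2 to 4, again with MIA 1 among the controls (log2 change -0.81 ± 0.51 SE, edgeR adjusted p = 0.232). Mt-cyb, cytochrome b of complex III, had 12191, 7320, 7094 and 7498 CPM in MIA 1 to 4, against 14283, 18651 and 18707 CPM in control 2 to 4, with no overlap but a difference that did not pass (log2 change -1.01 ± 0.50 SE, edgeR adjusted p = 0.136).

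The 3 mitochondrial genes that were lower encode membrane subunits of complex I. Mt-nd6, the only member encoded on the light strand, had 551, 348, 195 and 418 CPM in MIA 1 to 4, against 979.7, 1029 and 1121 CPM in control 2 to 4 (2.76-fold lower; log2 change -1.46 ± 0.35 SE, edgeR adjusted p = 0.0126). Mt-nd5 was 2.36-fold lower (log2 change -1.24 ± 0.37 SE, edgeR adjusted p = 0.0292) and Mt-nd2 2.45-fold lower (log2 change -1.29 ± 0.45 SE, edgeR adjusted p = 0.0494), both with all MIA libraries below all controls. Mt-nd4l had the largest negative change and a wide spread, with 516, 79.8, 69.7 and 238 CPM in MIA 1 to 4, against 606, 906 and 907 CPM in control 2 to 4; MIA 2 and MIA 3 were far below MIA 1 (log2 change -1.84 ± 0.67 SE, edgeR adjusted p = 0.057). Mt-nd4 had the change nearest to 0, with 212, 237, 146 and 62.2 CPM in MIA 1 to 4, against 143, 206 and 147 CPM in control 2 to 4 (log2 change -0.01 ± 0.41 SE, edgeR adjusted p = 0.987), and its sign turned with scaling by library totals, with FPKM and with a stricter filter. Mt-nd4 overlaps Mt-nd4l, and Mt-atp8 overlaps Mt-atp6; Mt-nd4 was counted far below its neighbours and Mt-atp8 at most at 1.31 CPM, so how reads in the shared bases were assigned bears on these 4 rows and their values are uncertain.

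**Figure D4:**
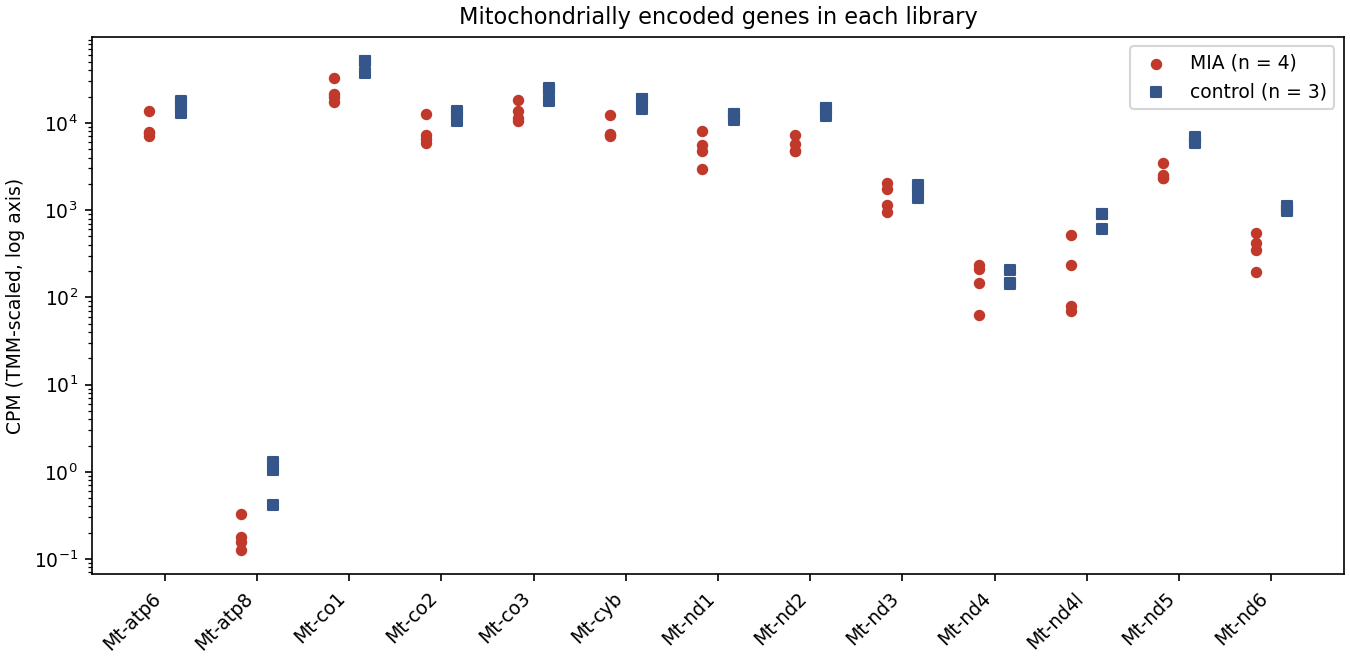
CPM of the 13 mitochondrially encoded genes in each library on a log axis, with MIA libraries as red circles and control libraries as blue squares. Mt-co1 is the highest and Mt-atp8 the lowest gene, and the groups are apart for 7 of the 12 tested genes, which are Mt-nd1, Mt-nd2, Mt-nd4l, Mt-nd5, Mt-nd6, Mt-cyb and Mt-co1. In these 7 all MIA libraries lie below all controls, as they do in 24.4% of all genes tested.

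The balance of the 2 genomes was compared within libraries as the ratio of the median FPKM of mitochondrial to nuclear rows tested of a complex. The nuclear rows of complex I include its assembly factors. In complexes III and V the mitochondrial side is 1 gene each, Mt-cyb and Mt-atp6. For complex I it was 32.5, 31.0, 17.1 and 21.4 in MIA 1 to 4, against 26.7, 16.5 and 21.96 in control 2 to 4. For complex III it was 133, 136, 53.4 and 63.6 in MIA, against 57.6, 43.7 and 45.5 in control. Each of these 2 complexes had at least 1 MIA library inside the control range. For complex IV it was 169, 203, 68.1 and 104 in MIA, against 145, 126 and 129 in control. For complex V it was 120.1, 100.3, 47.6 and 77.8 in MIA, against 66.2, 52.0 and 49.7 in control. The groups overlapped in all 4 complexes, so no separation of MIA from control was seen in this ratio. MIA 3 had the lowest ratio of the MIA libraries in each complex.

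The nuclear members varied together among the MIA libraries. MIA 2 was the lowest MIA library in 79 of the 93 rows tested and MIA 3 the highest in 74. Mitochondrial rows followed another order, with MIA 1 the highest in 11 of 12 and MIA 3 the lowest in 8. The shares of all genes with these orders are not given here, so the counts alone do not set the members apart from other genes. The summed nuclear share of counts ran from MIA 2 over MIA 1 and MIA 4 to MIA 3, which is also the order of the muscle share given above. The median nuclear level relative to the control mean had the same ends, but MIA 4 (-1.61) lay below MIA 1 (-1.50). Without MIA 2, which held 0.0562% muscle transcripts, 72 nuclear rows were called lower and the median log2 change was -1.37. Since every MIA library had less muscle RNA than every control, group and muscle share cannot be told apart in these samples.

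**Figure D5:**
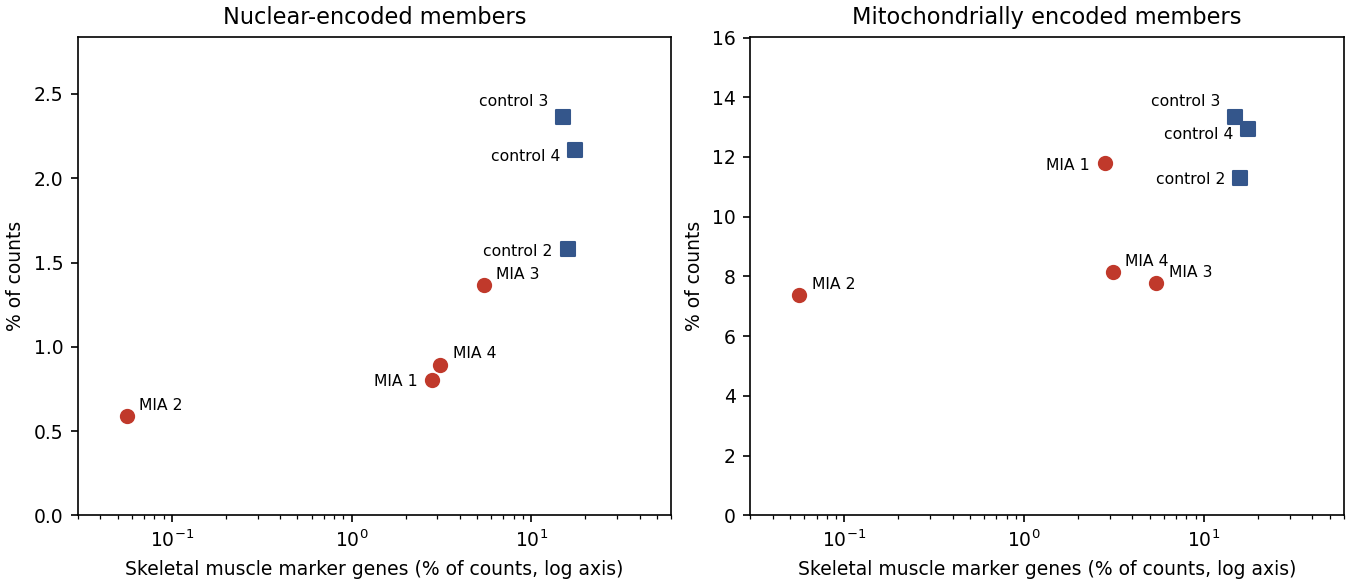
Percentage of all counts in nuclear-encoded (left) and mitochondrially encoded (right) respiratory chain genes against the percentage in skeletal muscle marker genes (log axis), 1 point per library, with MIA as red circles and control as blue squares. The nuclear share follows the order of the muscle share among the MIA libraries, from 0.587% in MIA 2 to 1.37% in MIA 3, and the mitochondrial share does not.

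Genes that build, supply or regulate the chain were read from lists made for the respiratory chain. Of 37 assembly factors outside the symbol rule, 25 were lower and 0 higher, with a median log2 change of -1.01. Over all genes tested in the same fit, 19.6% were called lower and 21.3% higher. In this list and in those of mitochondrial gene expression and of the outer membrane, 0 genes were higher at an unadjusted p under 0.05 in edgeR, DESeq2 and limma-voom. With the muscle level as a covariate the lower counts were 11 of 37 for these assembly factors, 3 of 23 for mitochondrial gene expression, 6 of 14 around coenzyme Q, 3 of 8 for other electron entry, 2 of 9 for carriers and 4 of 16 for the outer membrane, where 7.65% of all genes were lower. Ecsit, which takes part in complex I assembly, had the smallest p, with 23.1, 17.4, 34.8 and 33.8 CPM in MIA 1 to 4, against 93.6, 118 and 115 CPM in control 2 to 4 (log2 change -1.99 ± 0.26 SE, edgeR adjusted p = 0.00148). Coa5 (complex IV, -2.25 ± 0.29), Cox10 (haem a synthesis, -2.12 ± 0.33), Uqcc1 (complex III, -1.64 ± 0.23), Sdhaf3 (complex II, -1.67 ± 0.36) and Tmem70 (complex V, -1.59 ± 0.24) were also lower; these were chosen after their values were seen, 1 for each of the other complexes and 1 for haem a.

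Genes of mitochondrial gene expression and biogenesis were mixed, with 10 of 23 lower and 0 higher, beside 19.6% and 21.3% of all genes. Tfb2m, a mitochondrial transcription factor, had 13.0, 15.05, 16.2 and 17.03 CPM in MIA 1 to 4, against 37.3, 46.7 and 43.9 CPM in control 2 to 4 (log2 change -1.47 ± 0.16 SE, edgeR adjusted p = 0.00101). Tfam, which packs and transcribes mitochondrial DNA, was lower (log2 change -1.29 ± 0.23 SE, edgeR adjusted p = 0.00398), as were the nuclear receptors Esrra (log2 change -1.79 ± 0.27 SE, edgeR adjusted p = 0.00236) and Esrrg (log2 change -3.55 ± 0.60 SE, edgeR adjusted p = 0.00327) and the coactivator Ppargc1a (log2 change -2.05 ± 0.71 SE, edgeR adjusted p = 0.0491). Nrf1 (log2 change 0.37 ± 0.17 SE, edgeR adjusted p = 0.116) and Gabpa (log2 change 0.17 ± 0.14 SE, edgeR adjusted p = 0.337), regulators of many respiratory chain genes, did not pass and had positive values.

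Around coenzyme Q, 10 of 14 genes of its synthesis and of cytochrome c attachment were lower and 1 was higher. Of all genes, 19.6% were called lower and 21.3% higher. Coq10a, a coenzyme Q binding protein, had 22.7, 22.1, 45.3 and 43.5 CPM in MIA 1 to 4, against 172, 267 and 279 CPM in control 2 to 4 (log2 change -2.84 ± 0.34 SE, edgeR adjusted p = 0.00119), while its paralog Coq10b was the higher one (log2 change 1.12 ± 0.30 SE, edgeR adjusted p = 0.0189). Of 8 enzymes that feed electrons into coenzyme Q by other routes, 5 were lower and 1 higher, beside the same shares of all genes. Gpd2, of the glycerol phosphate shuttle, had 23.3, 18.2, 19.4 and 19.1 CPM in MIA 1 to 4, against 74.0, 65.4 and 78.6 CPM in control 2 to 4 (log2 change -1.86 ± 0.15 SE, edgeR adjusted p = 0.000627), and the higher one was Chdh, choline dehydrogenase (log2 change 4.74 ± 0.87 SE, edgeR adjusted p = 0.00453).

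Among inner membrane carriers 6 of 9 were lower and 1 higher, beside 19.6% and 21.3% of all genes. Mpc2, part of the pyruvate carrier, had 40.9, 39.7, 54.3 and 37.9 CPM in MIA 1 to 4, against 85.3, 146 and 124 CPM in control 2 to 4 (log2 change -1.46 ± 0.22 SE, edgeR adjusted p = 0.00239). The ADP/ATP carriers split like the complex IV paralogs: Slc25a4, the form of heart and muscle, was lower (log2 change -2.70 ± 0.45 SE, edgeR adjusted p = 0.00307) and Slc25a5, the form of dividing cells, was the higher one (log2 change 1.39 ± 0.24 SE, edgeR adjusted p = 0.00353). In the outer membrane and import list 8 of 16 were lower and 0 higher, beside the same shares of all genes. Vdac1, the main channel for metabolites, had 173, 108, 154 and 189 CPM in MIA 1 to 4, against 780.4, 1040 and 1133 CPM in control 2 to 4 (log2 change -2.66 ± 0.28 SE, edgeR adjusted p = 0.00095), and most Tomm genes of the import pore did not pass, with Tomm22 the exception (log2 change -0.48 ± 0.14 SE, edgeR adjusted p = 0.0288).

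The promoters of the nuclear members were searched on both strands for 4 motifs in the RefSeq window of 250 bases before to 50 after the start. Of 95 nuclear symbols 84 had an entry. The NRF1 core CGCATGCG was in 11.9% of these 84, beside 1.66% of all 33469 promoters, and the ETS motif CCGGAAG in 26.2%, beside 8.75%. The estrogen-related receptor motif TCAAGGTCA was in 2.38%, beside 0.433%, and the MEF2 motif in 1.19%, which is Cox6a2 alone, beside 3.29%. To show 1 example of each of the first 3 motifs, the 150 bases before the start are given with the match in capitals, for members that were lower in MIA. Ndufaf5, on the plus strand at chr3:147961462-147961611, holds the NRF1 core, Cox5b, on the plus strand at chr9:46417687-46417836, the ETS motif, and Atp5mc3, on the minus strand at chr3:79220665-79220814, the estrogen-related receptor motif read on the other strand.
Ndufaf5: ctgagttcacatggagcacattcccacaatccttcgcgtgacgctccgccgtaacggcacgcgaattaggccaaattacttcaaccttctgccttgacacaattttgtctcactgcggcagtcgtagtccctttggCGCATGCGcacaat
Cox5b: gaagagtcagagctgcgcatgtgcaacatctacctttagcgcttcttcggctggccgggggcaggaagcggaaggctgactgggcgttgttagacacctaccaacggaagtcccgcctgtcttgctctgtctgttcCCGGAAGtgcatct
Atp5mc3: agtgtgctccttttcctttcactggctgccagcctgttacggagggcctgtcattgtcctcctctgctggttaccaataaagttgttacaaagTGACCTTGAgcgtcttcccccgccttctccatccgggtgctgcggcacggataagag
These matches describe letters in a window, and the study measured no binding.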

How the data were processed

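Whole-transcriptome RNA was measured in synovium of 7 rats, with 1.5 µg of RNA per library. Tools named in the submitters' processing notes are HTSeq 0.11.2, HISAT2 and DESeq2 1.26.0, with Rnor_6.0 as the build and no step tied to any tool; annotation release and strand setting: not given in the sources used here. Per the file headers, the deposited values for every gene are raw counts and FPKM. Counts were used for the tests, and the deposited FPKM values, which are per gene length, for levels between genes and for paralog ratios (0.1 added before the log2). Groups and replicate numbers come from the labels, which give no batch or date. The complex of each member was assigned by hand from its symbol.

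Counts were fitted with edgeR 4.0.16 under R 4.3.3 (low counts removed by filterByExpr, TMM factors, quasi-likelihood F test on all 14054 genes kept, Benjamini-Hochberg, adjusted p under 0.05). CPM are relative to TMM-scaled library sizes, and the SE of a log2 change is its size divided by the square root of F. The common biological coefficient of variation was 36.7%. Depth is total counts of 13870822 to 16261089 per library; 6 members with too few counts (Ndufs6, 1 row of Ndufv3, Ndufa1, Cox8c, Cox7a1 and Mt-atp8) were not tested. No counts column was identical to another. Cox7a1 and Cox7a2 could not be compared, since Cox7a2 was not analysed here.

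Alternatives were DESeq2 1.42.0, limma 3.58.1 (voom, or log2(FPKM + 1)), median-of-ratios factors, library totals, TMM without members and muscle genes, no filter, a stricter filter (50 counts in 3 libraries), other pseudocounts (0.01 and 1), a replicate block, the muscle list level (mean log2 CPM) as a covariate, and dropping 1 library at a time. Members were named by this rule: in complexes I, III, IV and V the 2 lower and 2 higher genes with the smallest p; complex II, Cyc1 and Cycs; both genes of each pair; among mitochondrial genes the 3 with the highest FPKM and the extremes of change; and from each pathway list the gene with the smallest p. Other genes with values in the text were chosen after their values were seen. The members, lists and tests were chosen with earlier results of these data known. Promoters were matched by symbol, or by RefSeq synonym for Atp5s and Atp5md. Permutation tests went through all assignments of libraries to groups in code written for the purpose. Figures used pandas 2.3.3 and matplotlib 3.10.9, under Python 3.11.15.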

Additional observations from a re-analysis of the deposited data

Results flagged for a closer look

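In the MIA group, values were flagged where 1 library stood apart from the other 3 by more than Dixon's 95% critical value for 4 samples allows; 48 sets of values were looked at, and chance alone flags about 1 in 20. All 5 flags were MIA 1. Mt-atp6 had 13517 CPM in MIA 1, whereas MIA 2 to 4 had 7009 to 7788 CPM. The median log2 level of the mitochondrially encoded genes, relative to the control mean, was -0.51 in MIA 1 and -1.29 to -1.16 in the others. For those of complex IV it was -0.27 in MIA 1 and -1.08 to -0.97 in the others. For complex V it was -0.22 in MIA 1 and -1.17 to -1.01 in the others. The complex V value is that of Mt-atp6 alone, its only mitochondrial gene tested, so this flag repeats the Mt-atp6 flag on a log scale. These sets share genes with each other, so they are not independent. The log2 ratio of Cox6b2 to Cox6b1 was -4.45 in MIA 1, whereas MIA 2 to 4 had -5.48 to -5.41.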

How the results depend on the processing

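Of the 75 nuclear members lower in MIA, 0 had a positive log2 change in any alternative, and 56 to 81 nuclear members were lower in every fit but that with the covariate. With the muscle level as a covariate 24 nuclear members were called lower, 0 higher (4 unadjusted), and 0 mitochondrial members lower (2 unadjusted), in edgeR; the nuclear median was -0.93, and Cox6a2 and Cox8b turned to 0.89 and 1.38. With library totals the median of all genes moved to 0.51, 78.0% of calls were higher, against 52.1%, the nuclear median was -1.05, the mitochondrial median -0.59, and 1 mitochondrial member was called lower; relative to the median of all genes, the nuclear median was -1.56 there and -1.59 with TMM. With limma on log2(FPKM + 1) the median of all genes was 0.30, 75.2% of calls were higher, 5 nuclear members were higher, and the medians were -1.03 and -0.62. DESeq2 called 10 and limma-voom 7 mitochondrial members lower. Leaving out each library gave 58 to 81 nuclear and 1 to 3 mitochondrial members lower, and nuclear calls were fewest without control 3 (58) and control 4 (59). Mt-nd4 turned positive with FPKM (0.28), library totals (0.41), a stricter filter (0.00299) and in leave-one-out fits (-0.23 to 0.27). Over all genes, 2753 were lower and 2998 higher, against 1577 and 4792 with FPKM, 1480 and 5258 with library totals, 1075 and 1345 with the covariate, 1867 and 1761 without control 3 and 1757 and 1642 without control 4. Both groups share replicate numbers 2 to 4, but deviations of same-numbered libraries correlated at only 0.245, 0.0967 and 0.0425, so the numbers were not taken as pairs. With a replicate block 77 nuclear and 2 mitochondrial members were lower. The log2 ratios of Cox4i2, Ndufa4l2 and Cox6b2 to their paralogs were 3.73, 4.56 and 1.50 with the block (exact p = 0.25, the smallest 3 pairs allow) and 3.44 to 4.11, 4.32 to 5.39 and 1.50 to 1.89 in leave-one-out, where adjusted p of 0.1 to 0.111 follow from fewer assignments. Where no other cause is named, the cause of a change was not tested. At this depth 6 members had too few counts to test.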
